A study of Homo sapiens with 14 samples.

Results

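The PHLDA family (pleckstrin homology-like domain family A) was followed in WM9, an established human melanoma cell line, during inhibition of the BRAF kinase. Its 3 members, PHLDA1, PHLDA2 and PHLDA3, were taken by symbol: each probe whose platform annotation names a member was used, on all arrays. This gave 4 probes of 47322 and 3 genes of 20046 named on the array, with 2 probes for PHLDA1 and 1 each for PHLDA2 and PHLDA3. All 3 genes were among the 12742 with a probe above background on at least 2 arrays. The family was chosen by differences from DMSO seen in earlier results of these data, PHLDA2 being among the strongest, so the members' values below are descriptions and carry no test.

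The proteins of this family are small and consist of little more than a pleckstrin homology-like domain, a fold that binds phosphoinositide lipids of membranes. PHLDA1, also called TDAG51, is induced by growth factor and ERK signalling and by stress of the endoplasmic reticulum, and its transcript is a member of a published score of MAPK pathway activity. PHLDA2 is an imprinted gene of chromosome band 11p15.5, read from the maternal copy and best known for restraining growth of the placenta. PHLDA3 is a target of p53 and competes with the kinase AKT for binding to membrane lipids. In melanoma with activated BRAF, the RAF, MEK and ERK cascade runs without growth factor, and its feedback inhibitors and ETS factors are among the transcripts that depend on it.

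Total RNA was measured on 14 one-colour bead arrays from 7 groups of 2. Cells of 6 groups were kept in PLX4720, a BRAF inhibitor, at 10 µM for 12, 24, 48, 60, 72 or 96 h, and the 7th group was kept in the solvent DMSO for 96 h. The control was thus taken at 1 time, and at 12 to 72 h the effect of the drug and that of a shorter culture cannot be told apart. The 2 arrays of a group are described as biological replicates in the series' design text; whether they came from separate cultures is not stated. Both arrays of a group are named below as replicate 1 and replicate 2, in that order.

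The arrays had 37.5% to 41.1% of their probes above background. The median raw signal of the DMSO pair, 366 and 370, exceeded that of every PLX4720 array (232 to 316), a gap that the quantile normalization used here takes out by rank. The DMSO pair was also less alike than any other pair, with 6.99% of tested genes over 2-fold apart against 0.510% to 1.25% in the PLX4720 groups, and its part in the differences from DMSO was not tested beyond leaving out each array. Of the melanocyte lineage markers, SOX10, MITF and TYRP1 were above background on all 14 arrays, PMEL on 12, S100B on 9, MLANA on 7 and TYR on 6. PTPRC, CD3E, COL1A1, COL3A1, KRT5, KRT1, CDH5 and VWF, which mark leukocytes, fibroblasts, keratinocytes and endothelium, were above background on 0 arrays. Other genes of these lists were above background: COL1A2 and LUM on all 14, CD14 on 9, PDGFRB on 6, LYZ on 5, KRT14 on 2 and PECAM1 on 1.

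PHLDA1 lies on chromosome 12 (76025447 to 76031776, minus strand, GRCh38.p14), PHLDA2 on chromosome 11 (2928273 to 2929420) and PHLDA3 on chromosome 1 (201464278 to 201469188). All are protein-coding. The RefSeq promoter table held 1 of the 3, PHLDA1, whose 250 bases before the transcription start are shown because its transcript is the member tied to ERK and the ETS factors downstream of it. The window is chr12:76031777-76032026 on the minus strand, written 5′ to 3′, and capitals mark the core of the ETS binding motif, CGGAA, or TTCCG where it lies on the other strand:

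PHLDA1: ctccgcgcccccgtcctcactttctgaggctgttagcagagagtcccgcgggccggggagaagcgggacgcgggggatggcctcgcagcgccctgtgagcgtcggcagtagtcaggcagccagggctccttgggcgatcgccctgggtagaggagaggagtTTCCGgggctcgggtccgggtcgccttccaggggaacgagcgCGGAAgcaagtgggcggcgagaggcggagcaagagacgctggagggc

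The core occurred at 2 places, starting 47 bases before the transcription start on the gene's strand and 89 bases before it on the other. CGGAA on either strand was held by 30.3% of 35116 such windows in the table. The AP-1 motif TGANTCA (held by 6.57% of windows) and the cyclic AMP response element TGACGTCA (1.65%), each searched on both strands, had 0 matches in these letters. The window was rich in G and C, at 70.4% against a median of 58% over all windows. Of 9 other genes of the MAPK score, 5 were in the table and 2 of those, SPRY2 and DUSP6, held the ETS core. These matches describe the sequence and show no binding.

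The members parted into 1 transcript that was far lower in PLX4720 and 2 that were not. With quantile normalization, the group means of the brighter PHLDA1 probe and of PHLDA3 differed from DMSO by at most 0.46 log2 units. Over the 7 group means, PHLDA2 ranged over at least 4.42 log2 units, from DMSO to the background limit at 72 h. This bound holds on the background-corrected scale used here, where 23 other genes of 12742 had a measured range above it. PHLDA1 ranged over 0.55 at its brighter probe and PHLDA3 over 0.32, both less than the median gene at 0.79. PHLDA3 had 12269 genes with a wider range, so its signal was among the steadiest on these arrays.

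**Figure D1:**
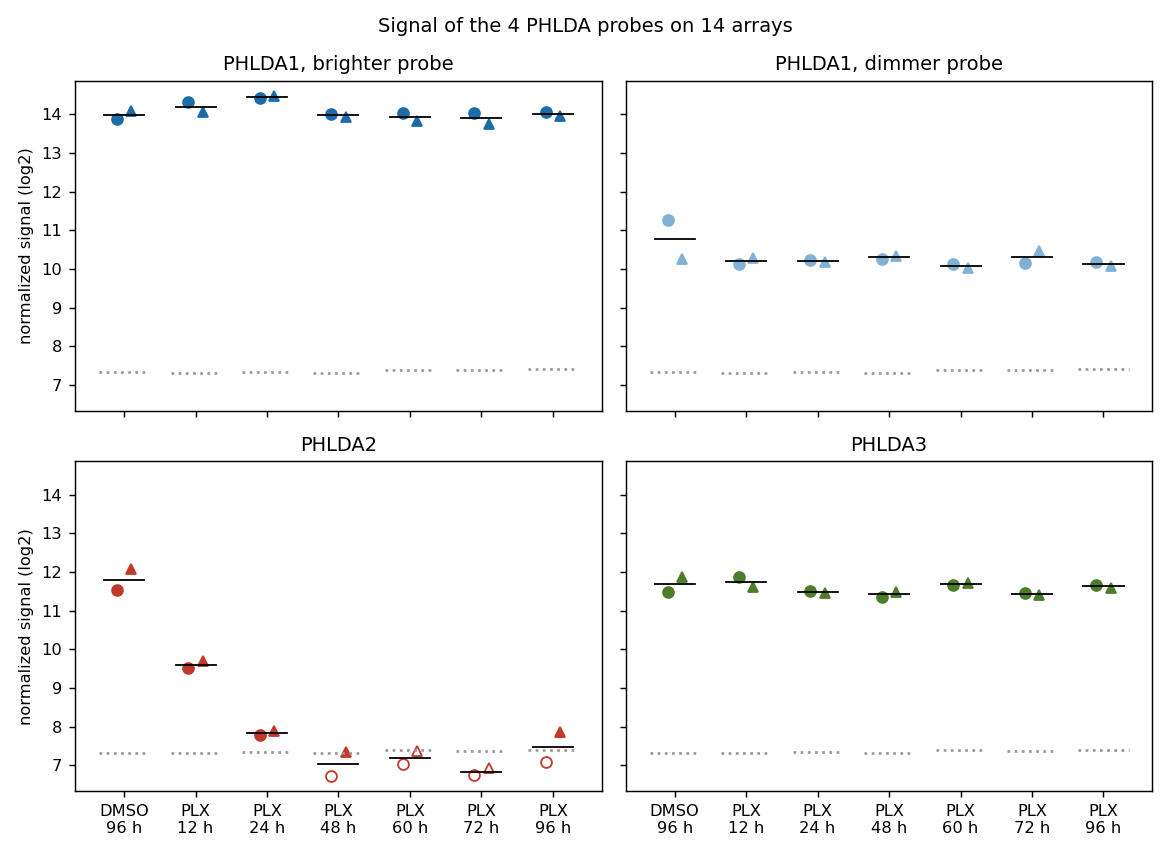
Normalized signal (log2) of the 4 PHLDA probes on each of the 14 arrays, by group. Circles are replicate 1 and triangles replicate 2, black bars are group means, open symbols are probes not above background, and dotted lines are the lowest level counted as above background. PHLDA2 drops from 11.54 and 12.08 in DMSO to the dotted line from 48 h on, while the other probes stay level apart from replicate 1 of DMSO at the dimmer PHLDA1 probe.

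PHLDA2 was the member that differed most from DMSO. Its raw signal was 5446 and 7046 in DMSO, 1031 and 842 after 12 h, and 436 and 338 after 24 h. It was 284 and 282 after 48 h, 268 and 277 after 60 h, 277 and 243 after 72 h, and 293 and 301 after 96 h. The background limit of the PLX4720 arrays lay between 264 and 353, so from 48 h on the probe read at or near background. It was above background on both arrays of DMSO, 12 h and 24 h, on 1 array at 48 h, on none at 60 h and 72 h, and on 1 at 96 h, 8 of 14 arrays in all.

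On the normalized log2 scale PHLDA2 read 11.54 and 12.08 in DMSO, 9.51 and 9.70 after 12 h, and 7.79 and 7.88 after 24 h. Later values were 6.71 and 7.34 after 48 h, 7.03 and 7.37 after 60 h, 6.75 and 6.93 after 72 h, and 7.10 and 7.87 after 96 h. All 12 PLX4720 arrays lay below both DMSO arrays, as was the case for 6.81% of all tested genes. Taken time by time the groups did not overlap at any of the 6 times, a pattern that 21.5% of genes showed at 12 h, 22% at 24 h, 23.7% at 48 h, 23% at 60 h, 26% at 72 h and 25.1% at 96 h. Because these are bulk samples, fewer cells with the transcript and less of it per cell cannot be told apart.

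Against DMSO the log2 difference of PHLDA2 was -2.20 at 12 h, a 4.60-fold lower signal (SE 0.28 at every time, 2 arrays a group). It was -3.97 at 24 h, or 15.7-fold. The transcript was therefore lower again by 24 h than at 12 h, with a difference of -1.77 between these times and no overlap of their arrays, as for 25.6% of genes. At 48 h the difference from DMSO was -4.78, or 27.5-fold, and at 96 h -4.32, or 20.0-fold, each with 1 of 2 arrays above background. At 60 h and 72 h no array was, so the ratio has only a bound: PHLDA2 was at least 21.3-fold lower at 60 h and at least 21.5-fold lower at 72 h. The bound sets the DMSO mean against the lowest level counted as above background, or the probe's own level where that was higher. The measured differences there were -4.60 and -4.97. In the authors' deposited table they were -3.30 and -3.43, smaller in size than the bounds. The bounds thus hold only on the background-corrected scale used here.

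In order of level, DMSO came first, then 12 h, then 24 h, and these neighbours did not overlap. The 24, 96, 60, 48 and 72 h groups followed in that order, and each overlapped the next. No order can be read among the last 4, which lay at or near background. Few genes were lower than PHLDA2 relative to DMSO: 63 of 12742 had a lower difference at 12 h and 9 at 24 h, the times when both its arrays were above background. In the authors' deposited table the difference from DMSO was smaller but had the same sign, at -1.92 at 12 h and -3.18 at 96 h.

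**Figure D2:**
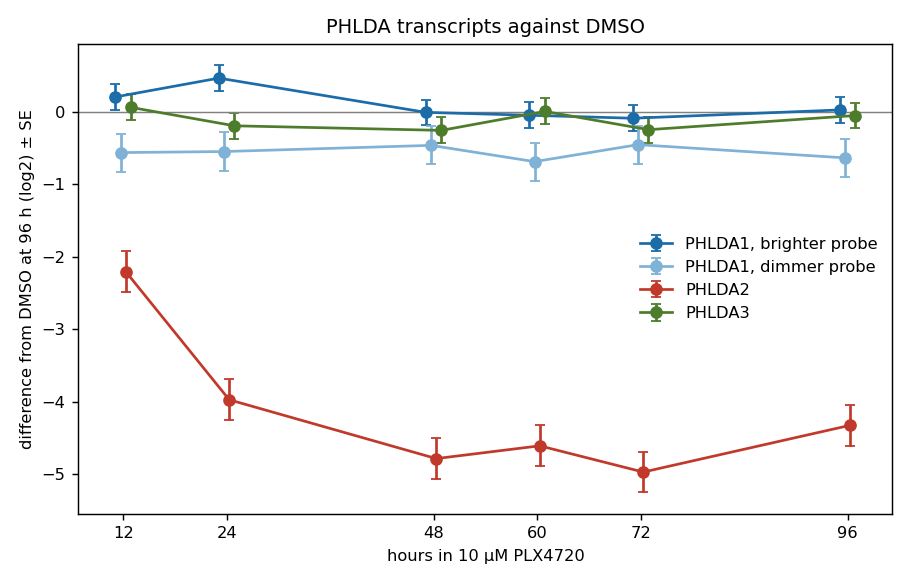
Difference from DMSO at 96 h (log2, y axis) of the 4 PHLDA probes over hours in 10 µM PLX4720 (x axis), with bars of 1 SE from the fit over all 14 arrays. PHLDA2 reaches -3.97 at 24 h and has measured values between -4.32 and -4.97 afterwards, at or near background; points are shifted sideways slightly so that they can be told apart.

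PHLDA1 had a bright signal on all arrays. At its brighter probe the normalized log2 signal was 13.88 and 14.09 in DMSO, 14.32 and 14.06 after 12 h, and 14.43 and 14.48 after 24 h. It was 14.01 and 13.94 after 48 h, 14.05 and 13.83 after 60 h, 14.03 and 13.76 after 72 h, and 14.06 and 13.96 after 96 h. The 24 h pair was the highest of the 7, and the other groups overlapped DMSO. The raw signal of this probe was 11413 to 30418, or 16.2% to 42.4% of the brightest probe of its array, so it was not at the top of the scale.

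Relative to DMSO the brighter PHLDA1 probe differed by 0.20 at 12 h and 0.46 at 24 h (SE 0.18 at every time), the latter a 1.38-fold higher signal. Both 24 h arrays lay above both DMSO arrays, as did those of 31.3% of all genes. At 48, 60, 72 and 96 h the differences were -0.01, -0.05, -0.09 and 0.03, each smaller than its SE. The 24 h pair also lay above the 12 h pair, by 0.26, as for 30.4% of genes. It lay above the 48 h pair by 0.47, as for 27.1%. In order of level 24 h stood apart from 12 h, and each of the groups that followed, 12 h, 96 h, DMSO, 48 h, 60 h and 72 h, overlapped the next.

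The sign of the PHLDA1 differences at 12 h and 96 h rested on the scaling and on the probe, and that at 24 h on the probe. With each array scaled to a common median in place of quantile normalization, the median difference of all genes moved from 0.06 to -0.14 at 12 h and from 0.07 to -0.27 at 96 h. Under that scaling the brighter probe differed by -0.17 at 12 h, 0.07 at 24 h and -0.43 at 96 h. Set relative to the median of all genes, the 24 h difference was 0.38 with quantile normalization and 0.20 with median scaling. At 48, 60 and 72 h median scaling gave -0.46, -0.55 and -0.56, or -0.34, -0.33 and -0.39 relative to the median of all genes. The differences near 0 at these times thus hold for quantile normalization.

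The dimmer PHLDA1 probe gave another picture of DMSO. Its normalized log2 signal was 11.28 and 10.25 in DMSO and between 10.04 and 10.46 on the 12 PLX4720 arrays. Replicate 1 of DMSO thus stood apart from the other 13 arrays, with a raw signal of 4590 against 839 to 1988 on the others. The brighter probe of the gene showed the opposite order on the same pair, 13.88 in replicate 1 and 14.09 in replicate 2. At the dimmer probe the difference from DMSO was -0.45 to -0.69 over the 6 times (SE 0.26). Without replicate 1 of DMSO it was -0.18 to 0.06, and without replicate 2 of DMSO it was -0.96 to -1.20. The 2 probes thus differed in sign at 12, 24 and 96 h, while at 48, 60 and 72 h both were below DMSO, and the lower mean in PLX4720 at the dimmer probe rested on 1 DMSO array.

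In RefSeq the PHLDA1 gene overlaps PHLDA1-AS1, a long noncoding RNA at 76030494 to 76031378, and a divergent transcript, PHLDA1-DT, begins next to its start at 76031813. Probe positions were not used here, so which of the overlapping transcripts each probe can read was not examined.

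PHLDA3, the AKT competitor, kept a steady level, with 6.94% to 9.19% of the probes of an array brighter. Its normalized log2 signal was 11.47 and 11.88 in DMSO, 11.87 and 11.61 after 12 h, and 11.52 and 11.45 after 24 h. It was 11.36 and 11.49 after 48 h, 11.66 and 11.71 after 60 h, 11.46 and 11.40 after 72 h, and 11.66 and 11.60 after 96 h. The DMSO pair was the widest apart, at 0.41, and spanned the 12, 60 and 96 h arrays entirely.

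Against DMSO the difference of PHLDA3 was 0.06 at 12 h, -0.19 at 24 h, -0.26 at 48 h, 0.01 at 60 h, -0.25 at 72 h and -0.05 at 96 h (SE 0.18). The 72 h arrays alone lay below both DMSO arrays, the nearest pair reading 11.46 and 11.47, as did those of 26% of all genes. Leaving out replicate 1 of DMSO gave -0.26 at 96 h and leaving out replicate 2 gave 0.15, so its sign there was set by single arrays. Under median scaling all 6 differences were below 0, from -0.26 to -0.61, while relative to the median of all genes they were -0.12 to -0.43. In order of level from 12 h through 60 h, DMSO, 96 h, 24 h and 72 h to 48 h, every neighbour overlapped the next except 96 h and 24 h, 0.14 apart.

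The pathways behind the 3 members were read from gene lists, as counts called at an adjusted p of at most 0.05 by limma over all 12742 genes. The background is the share of all genes called: 9% higher and 8.26% lower at 12 h, and 16.4% higher and 13.5% lower at 96 h.

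Around PHLDA1, the other genes of the MAPK score fell. Of 9 genes, 9 fell at 12 h (median difference -3.56 against 0.06 for all genes) and 8 fell at 96 h (median -2.90 against 0.07). The 96 h median is the value of ETV4, which was above background on no 96 h array and at least 6.14-fold lower than in DMSO. DUSP4 was above background on no 12 h array and EPHA4 on no 96 h array. They were at least 1.25-fold and 1.94-fold lower there, so their differences are limited by background. SPRY4, a feedback inhibitor of receptor signalling, fell by 5.83 log2 units at 12 h (SE 0.27, limma adjusted p 4.90e-08) and fell by 5.28 at 96 h (adjusted p 4.57e-08). At 12 h SPRY4 was above background on 1 of 2 arrays, so the size of that fall is limited by background. ETV5, an ETS factor, fell by 4.97 at 12 h (SE 0.17, adjusted p 4.08e-09) and fell by 3.79 at 96 h (adjusted p 1.80e-08). As the mean of its 3 probes above background SPRY4 differed by -2.95 and -2.61, with its calls kept. In the same comparisons PHLDA1 differed by 0.20 and 0.03 at the brighter probe, and by -0.56 and -0.64 at the dimmer one. The 12 h call of DUSP4 was lost in the deposited values (difference -0.315, limma adjusted p 0.0653) and with array weights (adjusted p 0.0947). That of EPHA4 was lost with array weights (adjusted p 0.121). Without replicate 1 of 12 h, 7 of the 9 were called there, DUSP4 (adjusted p 0.084) and EPHA4 (adjusted p 0.128) no longer passing, and DUSP4 did not pass without replicate 1 of DMSO (adjusted p 0.063) or replicate 2 of 12 h (adjusted p 0.0592) either.

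**Figure D3:**
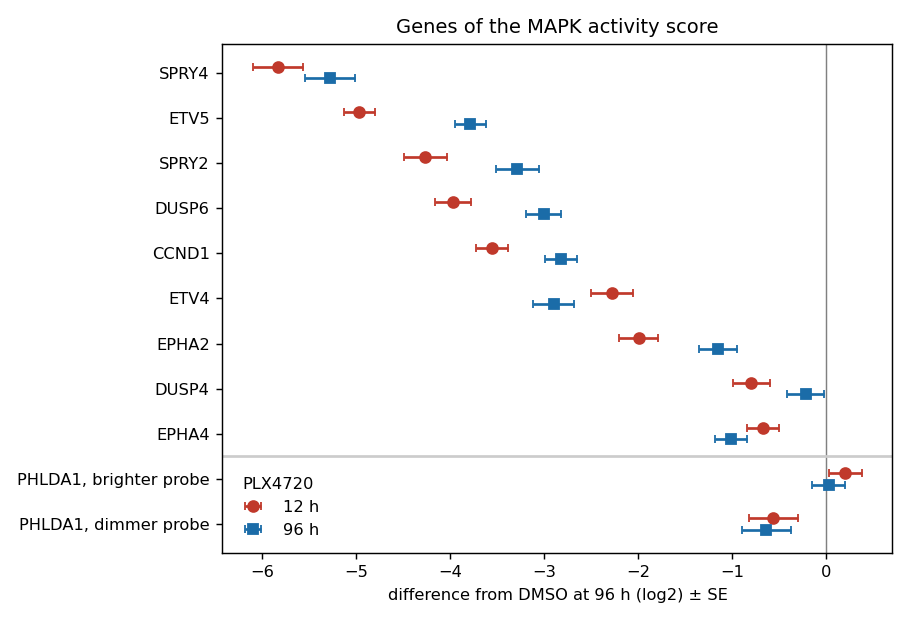
Difference from DMSO at 96 h (log2, x axis, bars of 1 SE) of 9 MAPK score genes and the 2 PHLDA1 probes after 12 h (circles) and 96 h (squares) in PLX4720. Of the 9 genes, SPRY4 and ETV5 lie farthest left and DUSP4 and EPHA4 nearest to 0. DUSP4 at 12 h, and EPHA4 and ETV4 at 96 h, were above background on no array of that time. The brighter PHLDA1 probe lies at 0.20 and 0.03.

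PHLDA1 is also linked to endoplasmic reticulum stress through the PERK kinase and ATF4. Genes of a stress list drawn up around that pathway were mostly higher. Of 12, 7 rose and 2 fell at 12 h (median 0.87), and 8 rose and 0 fell at 96 h (median 0.91). At 12 h ASNS, asparagine synthetase, rose by 1.71 (SE 0.17, limma adjusted p 1.81e-05) and DDIT3, the stress factor CHOP, by 1.47 (SE 0.17, adjusted p 9.44e-05). At 96 h ATF3 rose by 2.73 (SE 0.18, adjusted p 3.88e-07) and DDIT3 by 1.78 (adjusted p 8.08e-06). EIF2AK3, which encodes PERK itself, fell by 1.17 at 12 h (SE 0.23, adjusted p 0.00396; 0.0518 with array weights). XBP1 fell by 0.60 (SE 0.18, adjusted p 0.0357). That call was lost with array weights (adjusted p 0.146) and with no filter on dim probes (adjusted p 0.0861). It was also lost without replicate 2 of DMSO, where the difference was -0.37, and without either 12 h array.

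For PHLDA3, most of the other p53 targets were not called, 16 at 12 h and 17 at 96 h, and the called ones went both ways. Of 22 tested, 4 rose and 2 fell at 12 h (median 0.09), and 1 rose and 4 fell at 96 h (median -0.14). The shares over all genes were 9% higher and 8.26% lower at 12 h, and 16.4% higher and 13.5% lower at 96 h. Whether the list departs from these shares was not tested. TP53I3 rose by 1.46 at 12 h (SE 0.22, limma adjusted p 0.000523), and GDF15, a secreted stress factor, fell by 1.98 (SE 0.18, adjusted p 1.32e-05). SESN2, a sestrin that is on the ATF4 list too, rose by 1.09 at 12 h (SE 0.22, adjusted p 0.00455) and by 1.14 at 96 h (adjusted p 0.00192). POLH, a translesion polymerase, fell by 1.02 at 12 h (SE 0.23, adjusted p 0.00820) and fell by 1.11 at 96 h (adjusted p 0.00273). SESN1 rose by 0.68 at 12 h (adjusted p 0.0163) and fell by 0.85 at 96 h (SE 0.17, adjusted p 0.00241). The SESN1 rise did not pass with median scaling (adjusted p 0.365), with array weights (adjusted p 0.124) or without either 12 h array. The number called at 12 h was 3 without replicate 1 of 12 h, where SESN2 did not pass (adjusted p 0.0518), and POLH did not pass without replicate 2 of 12 h (adjusted p 0.0880). With median scaling 1 rose and 2 fell at 12 h, and SESN2 passed neither at 12 h (adjusted p 0.0592) nor at 96 h (adjusted p 0.0678). With array weights 1 rose and 1 fell at 12 h, SESN2 (adjusted p 0.0709) and POLH (adjusted p 0.0730) not passing. At 96 h it was 8 without replicate 2 of DMSO and 3 without replicate 1 of 96 h.

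Of 15 tested genes of the PI3K and AKT core, the pathway that PHLDA3 restrains, 2 rose and 3 fell at 12 h (median 0.02), and 4 rose and 1 fell at 96 h (median 0.36). IRS1, an insulin receptor adaptor, fell by 1.48 at 12 h (SE 0.21, limma adjusted p 0.000411) and the phosphatase gene INPP4B fell by 1.18 (SE 0.15, adjusted p 0.000201). IRS1 was above background on 1 of 2 arrays at 12 h. At 96 h IRS2 rose by 1.00 (SE 0.17, adjusted p 0.000865), PIK3R1 rose by 1.39 (SE 0.37, adjusted p 0.0125; 1 of its 2 probes in this direction) and PIK3CB fell by 1.11 (SE 0.26, adjusted p 0.00591). Without replicate 2 of 96 h neither PIK3R1 (adjusted p 0.0658) nor PIK3CB (adjusted p 0.0697) passed and 3 genes were called, and PIK3CB did not pass with array weights (adjusted p 0.0694). The PIK3R1 difference at 96 h was 0.57 without replicate 2 of DMSO and 2.21 without replicate 1, while averaging its probes gave 0.59 (adjusted p 0.0664). At 12 h IRS2 rose by 0.58 (adjusted p 0.0358) and PIK3R1 by 1.17 (adjusted p 0.0450), and both calls were lost without replicate 2 of DMSO (adjusted p 0.0936 and 0.246) or without either 12 h array, with 2 or 3 genes then called. In DMSO PIK3R1 was above background on 1 of 2 arrays, so the size of both its rises is limited by background. At 12 h too, 1 of its 2 probes was in this direction. Median scaling, which lowers all differences, left no gene of this list rising at 12 h or at 96 h. It left 3 fallen at 12 h and 1 at 96 h. The PHLDB genes, which share the pleckstrin-like name, had 0 of 3 called at 12 h. At 96 h PHLDB2 fell by 0.87 (SE 0.30, adjusted p 0.0450) and PHLDB1 by 0.76 (SE 0.26, adjusted p 0.0412), and each lost its call without single arrays: PHLDB2 without replicate 1 of DMSO (adjusted p 0.323) or either 96 h array, PHLDB1 without replicate 2 of DMSO (adjusted p 0.170) or replicate 1 of 96 h (adjusted p 0.279).

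PHLDA2 sits in an imprinted cluster whose genes are regulated in common in development, so its neighbours were examined by position and by list. RefSeq places 14 genes within 250 kb of PHLDA2, start to start, and 5 of them were tested. They moved in both directions: at 12 h 1 of the 5 rose and 3 fell, and at 96 h 0 rose and 1 fell.

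SLC67A1-AS, an antisense transcript also known as SLC22A18AS that starts 40.9 kb from PHLDA2, was the neighbour that fell at every time. Its difference from DMSO was -3.42 at 12 h (SE 0.21, limma adjusted p 4.76e-07), -3.66 at 24 h, -4.18 at 48 h, -4.43 at 60 h, -4.05 at 72 h and -3.60 at 96 h (adjusted p 1.68e-07). Among all genes 9.31% fell at 24 h, 11.2% at 48 h, 11.1% at 60 h and 12.7% at 72 h. At 12 h it was further below DMSO than PHLDA2 was, and at 96 h less far. SLC67A1, a transporter gene also known as SLC22A18 that overlaps this antisense transcript, fell by 1.95 at 12 h (SE 0.20, adjusted p 2.92e-05) and by 96 h differed by -0.23 (adjusted p 0.421). Whether the probe of each reads 1 strand alone was not examined.

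CDKN1C, an imprinted inhibitor of cyclin-dependent kinases 45.1 kb from PHLDA2, went the other way at first. It rose by 1.81 at 12 h (SE 0.23, limma adjusted p 0.000193) and by 1.36 at 24 h (adjusted p 0.00122), when 11.5% of all genes rose. In DMSO CDKN1C was above background on 1 of 2 arrays, so the size of this rise is limited by background. At 96 h it was above background on neither array and differed by -0.49 (adjusted p 0.140), a difference between signals at or near background. OSBPL5 fell by 1.33 at 12 h (SE 0.27, adjusted p 0.00468) and differed by -0.59 at 96 h (adjusted p 0.122). NAP1L4, the nearest tested neighbour on the other side, differed by 0.14 at 12 h (adjusted p 0.626) and by -0.25 at 96 h (adjusted p 0.277).

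**Figure D4:**
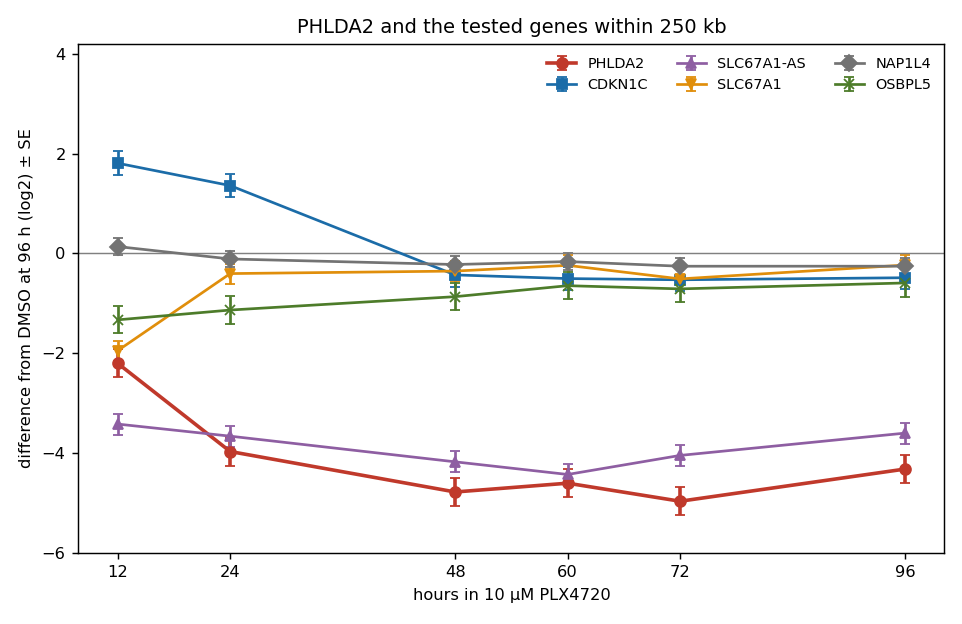
Difference from DMSO at 96 h (log2, y axis, bars of 1 SE) of PHLDA2 and the 5 tested genes that start within 250 kb of it, over hours in 10 µM PLX4720 (x axis). SLC67A1-AS runs with PHLDA2 far below 0, and NAP1L4 stays near 0. CDKN1C starts at 1.81 and ends at -0.49, where it was above background on neither 96 h array.

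Of the wider list of 17 genes of the 11p15.5 cluster, 10 were tested, of which 1 rose and 4 fell at 12 h (median -0.20) and 0 rose and 2 fell at 96 h (median -0.37). H19, an imprinted noncoding RNA, fell at 96 h (difference -2.19, SE 0.30, limma adjusted p 0.000150). It was above background on no 96 h array, so its signal was at least 1.70-fold lower than in DMSO. At 12 h H19 differed by -1.01 (limma adjusted p 0.037). That call was lost with array weights (adjusted p 0.263) and with no filter on dim probes (adjusted p 0.0841). It was also lost without replicate 2 of DMSO and without either 12 h array. Without replicate 1 of DMSO 4 genes of the list were called at 96 h. Around PHLDA1, NAP1L1 was the only gene tested of 12 annotated within 250 kb, and it did not pass at any time. Around PHLDA3, 3 of 14 were tested: CSRP1 passed at no time, LAD1 passed at 60 h only (adjusted p 0.0451, higher, as were 14.1% of all genes) but was above background on no DMSO array, so no size is given, and NAV1 fell by 1.34 at 12 h (SE 0.19, adjusted p 0.000450) and rose by 0.82 at 96 h (adjusted p 0.00638; adjusted p 0.302 under median scaling and 0.0513 with array weights).

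The genes with the profile nearest to PHLDA2 were found by the root mean square difference over the 14 arrays, each profile centred on its own mean. They were VIPR1, a receptor of vasoactive intestinal peptide (0.30 log2 units), MRGPRX3, a Mas-related G protein-coupled receptor (0.42), ACOX2, a peroxisomal oxidase (0.46), SHISA2 (0.48) and TENT5B (0.58). From 24 h on ACOX2 and TENT5B were above background on 0 of 10 arrays, and PHLDA2 was near background from 48 h, so there their likeness sets background beside background. SHISA2 was above background on 6 of these 10 arrays. PHLDA1 and PHLDA3 ranged over less than 1 log2 unit and were not matched. Of these 5, MRGPRX3 is on chromosome 11 with PHLDA2, and the others are on chromosomes 3, 13 and 1.

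VIPR1 was bright throughout, with group means of 14.31 in DMSO, 11.32 at 12 h, 10.36 at 24 h, 9.10 at 48 h and 9.76 at 96 h. It was above background on all 14 arrays, so its course could be followed where PHLDA2 could not: it was lower at 48 h than at 24 h and higher again at 96 h. Its differences from DMSO were -2.99 at 12 h and -4.55 at 96 h, beside -2.20 and -4.32 for PHLDA2. SHISA2 was slower, at -0.80 at 12 h and -2.76 at 24 h, beside -3.97 for PHLDA2 at 24 h. MRGPRX3 was at -1.83 and -2.69 at these times. ACOX2 was at -1.13 at 12 h and TENT5B at -1.94. Both genes were above background on the DMSO and 12 h arrays only, 4 of 14, so at 24 h they have a bound: ACOX2 was at least 7.05-fold lower than in DMSO and TENT5B at least 5.04-fold. The 5 genes were picked for this likeness, so these values only describe it.

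**Figure D5:**
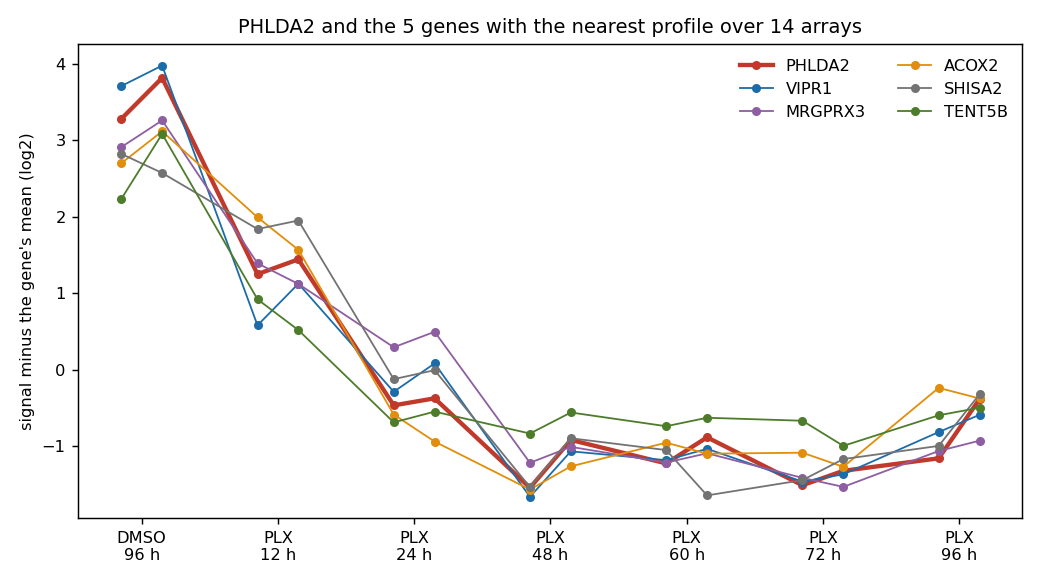
Normalized signal minus the gene's own mean (log2, y axis) of PHLDA2 and the 5 genes with the nearest profile, on the 14 arrays by group (x axis; within a group, replicate 1 is left of replicate 2). All 6 lines drop from DMSO to 48 h and stay below their own means after that. There PHLDA2 is near background and ACOX2 and TENT5B are not above it. SHISA2 is above background on 6 of the 10 arrays from 24 h on. On replicate 2 at 60 h the lines lie between -1.64 (SHISA2) and -0.63 (TENT5B).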

How the data were processed

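The unnormalized table, as deposited, gave the signal intensity of each probe on each array, not log transformed, per the file headers. The deposited normalized table held log2 values made by the authors by quantile normalization, as its equal columns show. The summarising software is not given in the sources used here. Its further columns were empty, so no detection p-values or control probes were used.

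Intensities were background corrected by normexp (saddle-point, offset 16) and quantile normalized on the log2 scale with limma 3.58.1 in R 4.3.3. A probe was above background past the upper 1% of a normal curve fitted to the lower side of the signal mode of its array. Folds given as at least a value are bounds on this background-corrected scale only. Per gene, the brightest probe above background on at least 2 arrays was fitted over 7 groups (lmFit and eBayes), two-sided, with Benjamini-Hochberg adjustment over 12742 genes. Probes were named through the platform annotation and RefSeq: 30113 had 1 gene, 8 several and 17201 none. Sequences and positions are RefSeq's, GRCh38.p14. The number of arrays, 2 a group, limits the precision, and p-values measure the spread between these arrays.

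The members, lists and rules were chosen with earlier results of these data known. The text names, per list, the 2 largest rises and falls at 12 h and 96 h whose arrays did not overlap, tested genes within 250 kb of a member, and the 5 genes most like a member that ranges over at least 1 log2 unit. The fit was tested on simulated data. Replicate numbers were not taken to pair the arrays, since not every pair of groups had deviations correlated over 0.1: pairs of PLX4720 groups had 0.152 to 0.414, but DMSO, which enters the comparisons, had -0.203 to 0.417 with them (17 of 21 pairs over 0.1). Alternatives were another offset, no background correction, median scaling, the deposited values, the replicate number as a block, array weights, other filters, the mean of all probes, and leaving out each array.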

Additional observations from a re-analysis of the deposited data

How the results depend on the processing

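The difference of PHLDA2 from DMSO was below 0 at each of the 6 times under all 10 alternatives run for it. At 96 h, -4.32 in the report, it was -3.47 without background correction, -3.18 in the deposited values and -4.72 with median scaling, and -4.71 to -3.93 without single arrays; its size is bounded by background, since 1 of its 2 arrays at 96 h was above it. PHLDA1 at 96 h was -0.43 with median scaling, -0.30 as the mean of both probes and -0.08 to 0.13 without single arrays. PHLDA3 at 96 h was -0.50 with median scaling and -0.26 to 0.15 without single arrays. With median scaling, 3 p53 targets and 3 PI3K and AKT genes were called at 12 h, and at 96 h 1 PI3K and AKT gene and 5 genes of the 11p15.5 list. Array weights left 2 p53 targets, 2 PI3K and AKT genes and 5 PERK and ATF4 genes at 12 h, and 3 p53 targets and 3 PI3K and AKT genes at 96 h. With no filter on dim probes 2 PI3K and AKT genes were called at 12 h. With probes above background on at least 7 arrays, 3 genes of the 11p15.5 list were called at 12 h and 1 at 96 h, fewer of its genes being tested. The cause of the other shifts was not tested. Among the alternatives, the calls over all genes are given for the block alone. List counts under the others therefore cannot be read against the share of all genes called there. With the replicate number as a block, 4 genes of the 11p15.5 list were called at 96 h, and the calls over all genes rose from 2199 to 2929 at 12 h and from 3815 to 4593 at 96 h; the block moved no other count by over 1.5 times.

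Without single arrays, the genes called at 12 h and at 96 h ranged as follows: MAPK score 7 to 9 and 8 to 8, p53 targets 3 to 7 and 3 to 8, PI3K and AKT 2 to 5 and 3 to 7, PERK and ATF4 6 to 9 and 6 to 9, and 11p15.5 list 4 to 5 and 2 to 4. No call changed direction under any alternative. Of 1242 values of single genes, which count members at times other than 96 h too, 59 lost a call, 14 gained one and 87 moved by more than the spread between replicates.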
